A study of Mus musculus with 16 samples.

Results

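The cyclins, the cyclin-dependent kinases (CDKs), the CDK inhibitors, the E2F factors and the proteins that act on them form the regulatory core of the cell division cycle. They were followed here in activated mouse CD8 T cells with and without cyclosporine A. The 44 genes were taken from textbook knowledge of this machinery, by role, but with earlier results of these data known. For each gene the probe set with a single gene symbol and the highest mean over the 16 arrays was used, which gave a value for 43 of them among 19938 genes in all. Ccnb1 had no probe set with its symbol alone and was not analysed here.

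In a dividing cell, D-type cyclins activate Cdk4 and Cdk6, which phosphorylate the retinoblastoma (pocket) proteins and so release E2F factors. E2F factors switch on genes of DNA replication together with the E- and A-type cyclins that activate Cdk2, and later Cdk1 with A- and B-type cyclins drives the cell into mitosis. Inhibitors of the INK4 family block Cdk4 and Cdk6, whereas Cdkn1b acts mainly on cyclin-Cdk2 complexes. In T cells, signals from the antigen receptor and from cytokines bring resting cells into this cycle.

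RNA came from a pair of CD8 T cell clones, 1 called conventional and labelled cyclosporine-sensitive, the other called unconventional and labelled cyclosporine-resistant. All 4 groups had been grown beforehand in medium with IL-1a, IL-6, IL-7, IL-15, TNF-α, IFN4-α and IFN-g, and were then activated with immobilized anti-CD3 antibody in medium from which recombinant cytokines were left out. Each clone was activated either with the antibody alone or with cyclosporine A added at 1 ug/ml, with 4 arrays per group; treated and untreated below mean with and without cyclosporine A. Cyclosporine A inhibits calcineurin, the phosphatase that activates NFAT factors below the T cell receptor. Since there was a single clone of each kind, a difference between the clones is a difference between those clones. It is not stated whether the 4 samples of a group were cultured separately, so the p-values cover only their mutual spread, which could be technical. No unstimulated group was analysed here, so every comparison is between activated cells.

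The values are log2 expression values, and a difference of 1 on this scale is a 2-fold difference. A gene was called higher or lower where the adjusted p of limma's moderated test, taken over all 19938 genes, was under 0.05. Array medians lay between 5.16 and 5.35, and arrays of the same group correlated at 0.995 to 0.998 over probe sets. Of the T cell markers, Cd3e had group means of 10.52 to 11.09, while Cd2 was near background at 3.99 to 4.25 in every group. Cd8a averaged 12.50 in the conventional and 10.31 in the unconventional clone with anti-CD3 alone, and 11.92 and 8.56 with cyclosporine A. The 4 B cell markers measured had group means of 3.09 to 5.16 and the 7 macrophage and dendritic cell markers of 3.38 to 4.86, near the lower end of the scale. Summed over markers, they read 5.99 to 6.40 and 6.62 to 6.91 on the 16 arrays. Of the 7 fibroblast and epithelial markers, Col1a1 was the highest, at 6.06 to 6.68, and the summed level was 8.06 to 8.68. Cd79a rose by 0.38 (adjusted p = 0.0182) and Col1a1 by 0.34 (adjusted p = 0.0430) with cyclosporine A in the unconventional clone. The part of these differences in the results was not tested.

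Promoters of members that move together can be read for the elements known from cell cycle promoters. Of the 43 genes, 32 had a promoter window in RefSeq (build GRCm38.p6), cut here to the 150 bases before and the 30 bases after the annotated start. Both strands were searched for the cell cycle homology region (CHR) TTTGAA, for CCAAT, and for the E2F-type motif TTTNNCGC. TTTGAA stood in the windows of 9 of the 32 genes, CCAAT in 18 and TTTNNCGC in 9. Over all 27025 genes with a window, the shares were 11.91%, 30.29% and 3.86%. Among the 22 genes with a window that fell with cyclosporine A in the conventional clone, 7 held TTTGAA, 12 held CCAAT and 7 held TTTNNCGC, against 2, 6 and 2 of the 10 others. A match describes letters and is not a bound site. The promoters to print were picked by direction and motif together. Cks1b, which rose in the conventional clone and holds TTTGAA, is not printed. Shown first are Cdk1, Ccnb2, Ccnf and E2f8, which fell in the conventional clone and hold TTTGAA. Then come Cdkn1b and Cdkn2b, which rose in at least 1 clone and do not hold it. Each is written 5′ to 3′ on the strand of its gene, with motif matches on either strand in capitals.
Cdk1: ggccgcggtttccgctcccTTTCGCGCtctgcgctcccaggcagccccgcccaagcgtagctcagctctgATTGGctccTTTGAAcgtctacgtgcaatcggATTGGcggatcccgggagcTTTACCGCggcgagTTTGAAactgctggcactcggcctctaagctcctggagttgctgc
Ccnb2: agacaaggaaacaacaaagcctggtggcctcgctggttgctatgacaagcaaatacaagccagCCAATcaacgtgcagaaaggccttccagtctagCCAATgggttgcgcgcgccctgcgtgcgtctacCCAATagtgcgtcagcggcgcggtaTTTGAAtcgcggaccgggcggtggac
Ccnf: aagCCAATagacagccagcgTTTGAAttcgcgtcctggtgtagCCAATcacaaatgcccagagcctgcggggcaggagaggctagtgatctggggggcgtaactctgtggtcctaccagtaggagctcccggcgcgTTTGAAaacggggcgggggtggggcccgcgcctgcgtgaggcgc
E2f8: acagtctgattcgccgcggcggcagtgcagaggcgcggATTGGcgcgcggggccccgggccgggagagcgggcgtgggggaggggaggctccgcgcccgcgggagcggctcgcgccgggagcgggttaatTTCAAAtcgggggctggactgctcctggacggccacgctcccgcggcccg
Cdkn1b: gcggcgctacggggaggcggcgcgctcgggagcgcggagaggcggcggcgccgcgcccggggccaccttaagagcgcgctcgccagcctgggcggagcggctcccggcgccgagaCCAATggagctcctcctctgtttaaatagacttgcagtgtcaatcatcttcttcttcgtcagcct
Cdkn2b: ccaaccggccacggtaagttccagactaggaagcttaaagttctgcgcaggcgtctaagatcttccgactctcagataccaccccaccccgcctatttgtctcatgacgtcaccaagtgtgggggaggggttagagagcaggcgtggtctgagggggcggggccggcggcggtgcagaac

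The Cdk1 window, chr10:69352883-69353062 on the minus strand, held each of the 3 motifs 2 times. TTTGAA began at -71 and -15 from the start, CCAAT (read as ATTGG) at -80 and -48, and the E2F-type motif at -131 and -29. Ccnb2, at chr9:70421525-70421704 on the minus strand, held 3 CCAAT matches at -87, -54 and -21 and TTTGAA at 5. Ccnf, at chr17:24251380-24251559 on the minus strand, held 2 TTTGAA matches at -130 and -14 and 2 CCAAT matches at -147 and -107. E2f8, at chr7:48881567-48881746 on the minus strand, held TTTGAA, read on this strand as its reverse complement, at -20 and CCAAT at -112. In Cdkn1b, at chr6:134920251-134920430 on the plus strand, 1 CCAAT match was found at -35, and in Cdkn2b, at chr4:89311003-89311182 on the minus strand, none of the 3 motifs.

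Cyclosporine A lowered most of these genes in the conventional clone. Of the 43 genes, 29 were lower, 7 higher and 7 not called, with a median log2 change of -0.70 against 0.02 over all genes. Over all 19938 genes, 15.5% were called lower and 15.9% higher in that clone. At least 2-fold lower were 14 of the 43, where 2.69% of all genes were. In RNA from whole cultures, fewer cycling cells and less RNA per cell cannot be told apart.

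The unconventional clone changed in the same direction for most of the genes, by less. There 23 of the 43 genes were lower, 6 higher and 14 not called, with a median of -0.33 against 0.02 over all genes, of which 12.3% were called lower and 12.6% higher. Cdk1 and E2f8 were the 2 genes at least 2-fold lower, where 1.07% of all genes were. Cdkn2b was the 1 gene at least 2-fold higher, where 245 of all 19938 genes were. Replicate 3 with cyclosporine A in this clone stood apart: it was the highest of its group for 17 of the 23 lowered genes. Over the 23 it lay 0.16 above the group mean on average. Without it 25 genes were called lower, 5 higher and 4 at least 2-fold lower. Without replicate 1 or replicate 2 of the same group, 1 gene was at least 2-fold lower.

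The difference of the cyclosporine A effects between the clones was tested directly for each gene. It was called for 24 of the 43 genes. For 17 of them the change was more positive in the unconventional clone, where 8.51% of all genes were called that way. For the other 7 it was more negative, where 7.78% of all genes were. The median difference was 0.31 against 0.00 over all genes. Without unconventional cyclosporine A replicate 3, the counts were 15 and 7.

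Sorted by both clones, 21 genes fell in both, where 8.46% of all genes did. They are Ccnd2, Ccne1, Ccne2, Ccna2, Ccnf, Cdk1, Cdk2, Cdk4, Cdk6, Cdc25a, Cdc25c, Skp2, E2f1, E2f2, E2f3, E2f5, E2f8, Tfdp1, Chek1, Foxm1 and Mybl2. For 9 of the 21 the fall was smaller in the unconventional clone by the test of the difference. This held for 2.32% of all genes. The 9 are Ccne2, Ccna2, Ccnf, Cdk1, Cdk4, E2f1, E2f8, Tfdp1 and Mybl2. For the other 12 the difference was not called. Cdkn1b and Rb1 rose in both clones, where 7.81% of all genes did. Cdkn2a, Cks1b and Rbl2 were called in opposite directions, where 1.12% of all genes were. Ccnd3, Cdk7, Cdkn3 and E2f4 were called in neither clone, where 61% of all genes were not.

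**Figure D1:**
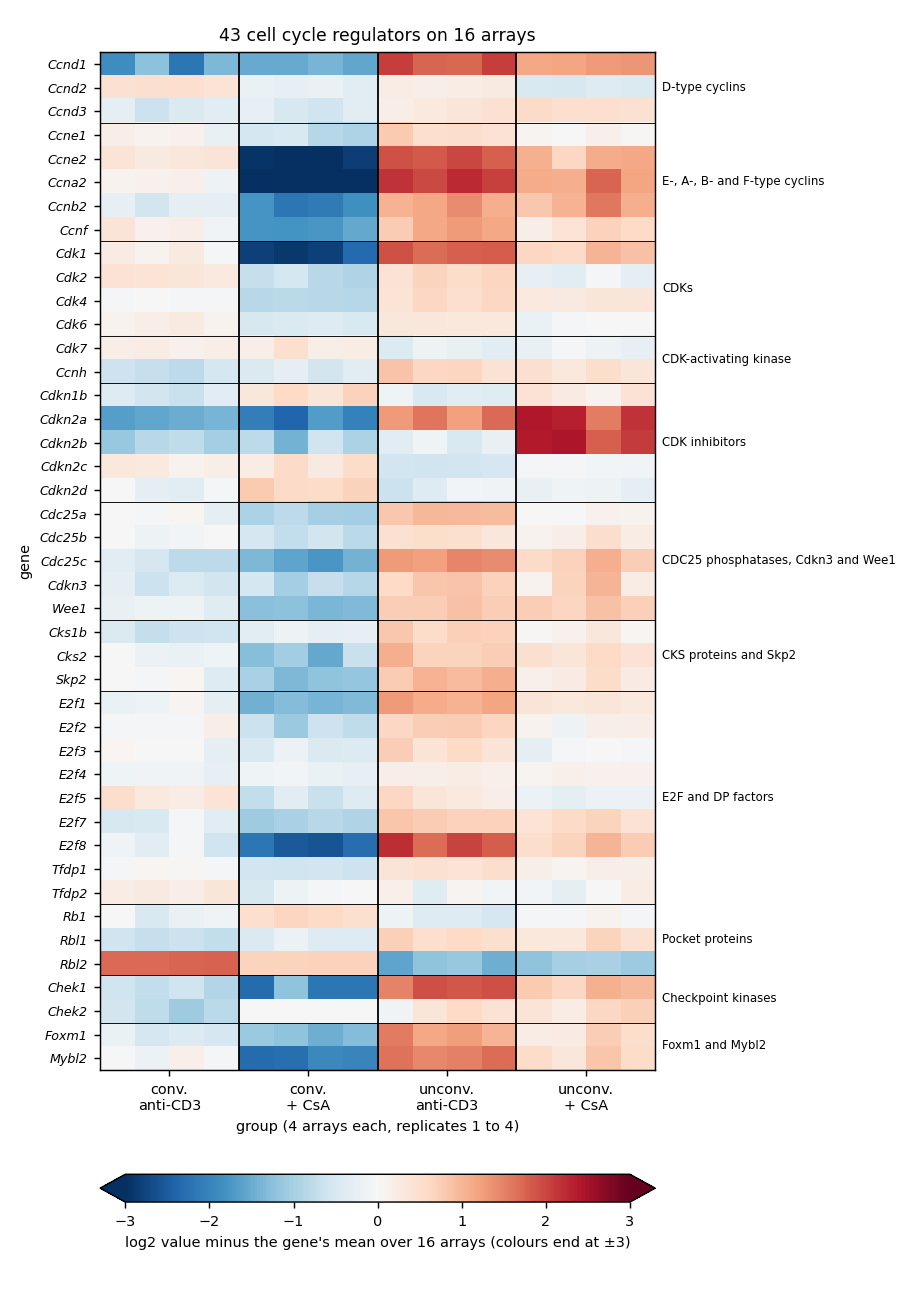
Heatmap of the 43 genes (rows, by role) on the 16 arrays (columns, by group); colour is the log2 value minus that gene's mean over all arrays, with the scale ending at 3 in both directions. The conventional arrays with cyclosporine A are the lowest 4 for Ccne2, Ccna2, Cdk1, E2f8 and Mybl2 among others, while Rbl2 is highest on the conventional arrays with anti-CD3 alone.

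Among the D-type cyclins, which couple outside signals to Cdk4 and Cdk6, Ccnd2 fell to a like extent in both clones and Ccnd1 fell in the unconventional clone. Ccnd2 read 13.00, 13.02, 13.05 and 12.96 on the conventional arrays with anti-CD3 alone and 12.36, 12.30, 12.34 and 12.23 with cyclosporine A. On the unconventional arrays it read 12.76, 12.72, 12.78 and 12.82 against 12.10, 12.06, 12.16 and 12.12. The groups did not overlap in either clone. The log2 changes were -0.70 (SE 0.06, 1.62-fold, adjusted p = 8.7e-09) and -0.65 (SE 0.06, 1.57-fold, adjusted p = 5.5e-08), and their difference was 0.04 (SE 0.08, adjusted p = 0.8373).

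Ccnd1 read 4.94, 5.57, 4.62 and 5.44 on untreated conventional arrays and 5.28, 5.29, 5.39 and 5.24 with cyclosporine A, so the groups overlapped at a low level. In the unconventional clone it was far higher, at 8.88, 8.55, 8.51 and 8.87, and at 7.95, 7.99, 8.08 and 8.12 with cyclosporine A. The clone difference with anti-CD3 alone was 3.56 (SE 0.15, 11.8-fold, adjusted p = 1.5e-13), the largest positive one among the 43 genes. Its change with cyclosporine A was -0.67 (SE 0.15, adjusted p = 0.0018) in the unconventional and 0.16 (SE 0.15, adjusted p = 0.4898) in the conventional clone, and the difference was called (-0.83, SE 0.21, adjusted p = 0.0086). The conventional means were higher than those of 45.3% and 47.5% of all genes, without and with cyclosporine A. At such a level a fall may be compressed and hard to see. Ccnd3 averaged 7.86 ± 0.15 and 7.85 ± 0.15 (SD, n = 4) without and with cyclosporine A in the conventional clone, and 8.61 ± 0.11 and 8.79 ± 0.04 in the unconventional clone.

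In the conventional clone, Ccne2 and Ccna2 fell the most of the 43 genes. All 5 measured genes of the E, A, B and F types fell in the conventional clone, where 15.5% of all genes fell. In the unconventional clone 4 of the 5 fell, where 12.3% of all genes did. Ccne2, a partner of Cdk2 at the start of DNA replication, read 7.86, 7.73, 7.80 and 7.84 in the conventional clone and 4.52, 4.22, 3.56 and 4.64 with cyclosporine A. Its unconventional arrays read 9.38, 9.29, 9.46 and 9.26, and 8.52, 8.08, 8.58 and 8.63 with cyclosporine A. With the drug, each unconventional array was still above every conventional array without it. The log2 changes were -3.57 (SE 0.17, 11.9-fold, adjusted p = 1.6e-12) and -0.89 (SE 0.17, 1.86-fold, adjusted p = 3.2e-04), with a difference of 2.67 (SE 0.23, adjusted p = 9.1e-08). The conventional mean with cyclosporine A was higher than that of 27.0% of all genes, a range in which RMA compresses differences, so the fold may understate the fall.

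Ccna2 encodes cyclin A2, which acts with Cdk2 in S phase and with Cdk1 before mitosis. It read 8.52, 8.53, 8.56 and 8.25 in the conventional clone and 5.30, 4.81, 4.48 and 5.24 with cyclosporine A. The unconventional arrays read 10.58, 10.38, 10.64 and 10.46 without and 9.53, 9.50, 10.15 and 9.58 with cyclosporine A. No groups overlapped, and replicate 3 was the highest of the treated unconventional arrays. The log2 changes were -3.51 (SE 0.16, 11.4-fold, adjusted p = 1.0e-12) and -0.82 (SE 0.16, 1.77-fold, adjusted p = 4.3e-04), and without that replicate the unconventional change was -0.98. The difference was 2.69 (SE 0.22, adjusted p = 4.4e-08). The treated conventional mean was higher than that of 41.8% of all genes, so the fold there may be compressed too.

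Ccnb2, a mitotic partner of Cdk1, averaged 7.28 ± 0.14 and 5.64 ± 0.20 (SD, n = 4) in the conventional clone without and with cyclosporine A, a change of -1.64 (SE 0.14, adjusted p = 6.9e-09). In the unconventional clone it averaged 8.80 ± 0.18 and 8.75 ± 0.33, where the arrays overlapped and the change was -0.06 (SE 0.14, adjusted p = 0.8529). The difference, 1.58 (SE 0.19), was called at an adjusted p of 5.1e-06. Ccnf, an F-box protein that marks cell cycle proteins for ubiquitination and is not known to bind a CDK, fell by 1.87 and by 0.62, with a difference of 1.24 (SE 0.18, adjusted p = 3.1e-05). Ccne1, the other E-type cyclin, fell in both clones, with changes of -0.74 (adjusted p = 1.8e-05) and -0.50 (adjusted p = 0.0016). Its difference of 0.24 (SE 0.16) was not called.

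**Figure D2:**
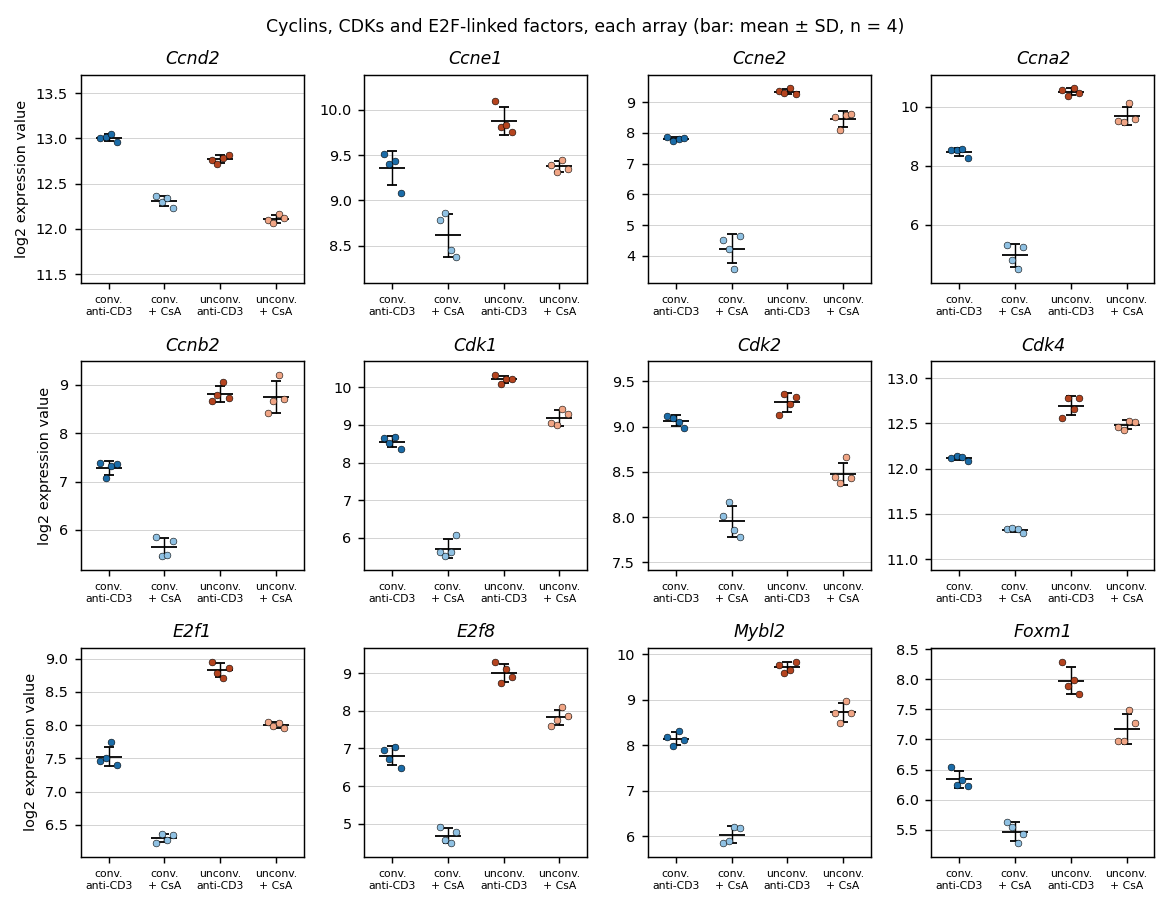
Log2 expression value of 12 cyclins, CDKs and transcription factors on each of the 16 arrays (points) by clone and treatment, with the group mean and SD (bars); the y axes differ between panels. Ccne2 and Ccna2 drop from means of 7.80 and 8.46 to 4.24 and 4.96 in the conventional clone and from 9.35 and 10.51 to 8.45 and 9.69 in the unconventional clone, while Ccnd2 drops alike in both.

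All 4 CDKs of the cell cycle fell in both clones, where 8.46% of all genes did, by unequal amounts. Cdk1, the mitotic kinase, read 8.65, 8.52, 8.68 and 8.36 in the conventional clone and 5.61, 5.51, 5.61 and 6.08 with cyclosporine A. The unconventional arrays read 10.33, 10.09, 10.21 and 10.22, and 9.04, 9.00, 9.43 and 9.29 with cyclosporine A. The groups were apart in both clones, and the treated unconventional arrays stayed above the untreated conventional ones. The changes were -2.85 (SE 0.12, 7.22-fold, adjusted p = 2.7e-13) and -1.02 (SE 0.12, 2.03-fold, adjusted p = 1.4e-06), with a difference of 1.83 (SE 0.17, adjusted p = 1.4e-07).

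Cdk2, the kinase of E- and A-type cyclins, read 9.12, 9.10, 9.05 and 8.99 in the conventional clone and 8.01, 8.17, 7.86 and 7.78 with cyclosporine A. The unconventional arrays read 9.13, 9.36, 9.25 and 9.33 against 8.44, 8.38, 8.66 and 8.43. Unlike Cdk1, its treated unconventional arrays all lay below the untreated conventional ones. The changes were -1.11 (SE 0.09, adjusted p = 2.8e-09) and -0.79 (SE 0.09, adjusted p = 7.5e-07), and the difference of 0.32 (SE 0.12) had an adjusted p of 0.0871. Without conventional cyclosporine A replicate 2 that difference was 0.39 with an adjusted p of 0.023. With only genes above the median mean level its adjusted p was 0.046.

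The D-cyclin kinases Cdk4 and Cdk6 also fell in both clones. Cdk4 averaged 12.12 ± 0.02 and 11.33 ± 0.02 in the conventional clone and 12.70 ± 0.10 and 12.48 ± 0.05 in the unconventional clone (SD, n = 4). Its changes were -0.79 (SE 0.06, adjusted p = 2.9e-09) and -0.21 (SE 0.06, adjusted p = 0.0141), and the difference was 0.58 (SE 0.09, adjusted p = 6.5e-05). The unconventional fall of Cdk4 was not called without anti-CD3 replicate 2 or without replicate 4 of that clone, at changes of -0.18 or -0.19. Cdk6 changed by -0.61 (adjusted p = 1.5e-07) and -0.39 (adjusted p = 8.7e-05), and its difference of 0.22 (SE 0.09) was not called. That difference was called with only genes above the median mean level (adjusted p = 0.042) and with an intensity trend in the variance (adjusted p = 0.021).

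The CDK-activating kinase, which phosphorylates the activation loop of the other CDKs and is also part of the general transcription factor TFIIH, moved little. Its kinase Cdk7 read 9.25, 9.29, 9.18 and 9.27 in the conventional clone and 9.25, 9.53, 9.23 and 9.29 with cyclosporine A. The unconventional arrays read 8.65, 8.90, 8.84 and 8.73 against 8.83, 9.01, 8.91 and 8.81. Treated and untreated arrays overlapped in both clones, with changes of 0.08 and 0.11 (SE 0.08 each) that were not called.

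Ccnh, the cyclin of that kinase, read 8.27, 8.21, 8.12 and 8.36 in the conventional clone and 8.47, 8.62, 8.35 and 8.55 with cyclosporine A. In the unconventional clone it read 9.76, 9.51, 9.54 and 9.32 against 9.38, 9.22, 9.42 and 9.26. The groups overlapped in both clones. Its conventional change of 0.26 (SE 0.09) had an adjusted p of 0.0333, which rose to between 0.071 and 0.1 without conventional anti-CD3 replicate 2 or 3 or cyclosporine A replicate 2 or 4, at changes of 0.22 to 0.25. In the unconventional clone the change was -0.21 (adjusted p = 0.0949), and -0.28 with an adjusted p of 0.025 without anti-CD3 replicate 4. The difference was -0.47 (SE 0.13, adjusted p = 0.0126).

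The CDK inhibitors moved up more often than down, and the clones differed in which ones. In the conventional clone 2 of the 5 rose and 1 fell, where 15.9% of all genes rose and 15.5% fell. In the unconventional clone 4 of the 5 rose, where 12.6% of all genes did. Cdkn1b encodes p27, an inhibitor of cyclin-Cdk2 that is high in resting T cells. It read 8.0, 7.82, 7.72 and 8.05 in the conventional clone and 8.71, 8.97, 8.75 and 9.06 with cyclosporine A. In the unconventional clone it read 8.24, 7.92, 8.06 and 8.02 against 8.81, 8.63, 8.49 and 8.81. It rose without overlap in both clones, by 0.98 (SE 0.10, 1.97-fold, adjusted p = 1.5e-07) and 0.62 (SE 0.10, 1.54-fold, adjusted p = 7.8e-05), and the difference of -0.35 (SE 0.14) was not called. The other, dimmer probe set of Cdkn1b gave changes of 1.34 and 0.95.

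Cdkn2b, which encodes the INK4 inhibitor p15, was the most raised of the 43 genes. Its conventional arrays read 5.96, 6.27, 6.34 and 6.08, and 6.31, 5.69, 6.51 and 6.15 with cyclosporine A. On the unconventional arrays it went from 6.76, 6.98, 6.66 and 6.88 to 9.48, 9.52, 8.89 and 9.21. The conventional groups overlapped and the unconventional groups lay far apart. The changes were -0.00 (SE 0.15, adjusted p = 0.9993) and 2.46 (SE 0.15, 5.49-fold, adjusted p = 3.1e-10), and the difference was 2.46 (SE 0.22, adjusted p = 9.8e-08). Without replicate 3, the lowest of the treated unconventional arrays, the change there was 2.58.

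Cdkn2a gives rise to p16, an INK4 inhibitor, and to p19Arf, which acts on the p53 pathway; the RefSeq table holds 2 promoter windows for it, and the probe set value does not separate the transcripts. It read 6.60, 6.70, 6.76 and 6.86 in the conventional clone and 6.18, 5.88, 6.57 and 6.23 with cyclosporine A. The unconventional arrays read 9.54, 9.86, 9.49 and 9.95, and 10.66, 10.58, 9.79 and 10.41 with cyclosporine A. Treated and untreated arrays overlapped in the unconventional clone through replicate 3 and were apart in the conventional clone. The conventional change was -0.52 (SE 0.16, adjusted p = 0.0188) and the unconventional change 0.65 (SE 0.16, adjusted p = 0.0049), with a difference of 1.17 (SE 0.23, adjusted p = 0.0011). The conventional fall was not called without anti-CD3 replicate 4 (-0.47, adjusted p = 0.055) or without cyclosporine A replicate 2 (-0.41, adjusted p = 0.074), and without unconventional cyclosporine A replicate 3 the rise was 0.84.

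The other INK4 genes split between the clones. Cdkn2d, which encodes p19Ink4d, rose in the conventional clone from 8.01 ± 0.16 to 8.83 ± 0.11 (SD, n = 4; adjusted p = 4.3e-06) and averaged 7.88 ± 0.26 and 7.98 ± 0.07 in the unconventional clone (adjusted p = 0.6182). The difference was -0.71 (SE 0.15, adjusted p = 0.0023). Cdkn2c, which encodes p18, rose in the unconventional clone by 0.49 (SE 0.08, adjusted p = 9.9e-05), where the conventional change was 0.18 (SE 0.08, adjusted p = 0.0980). The conventional rise of Cdkn2c was called without cyclosporine A replicate 1 (0.25, adjusted p = 0.024). Its difference of 0.31 (SE 0.11) was not called, with an adjusted p of 0.0803, and became called without conventional cyclosporine A replicate 2 (0.37, adjusted p = 0.029) or replicate 4 (0.36, adjusted p = 0.043). It was also called with quantile normalization (0.36, adjusted p = 0.015) and with only genes above the median mean level (0.31, adjusted p = 0.04).

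**Figure D3:**
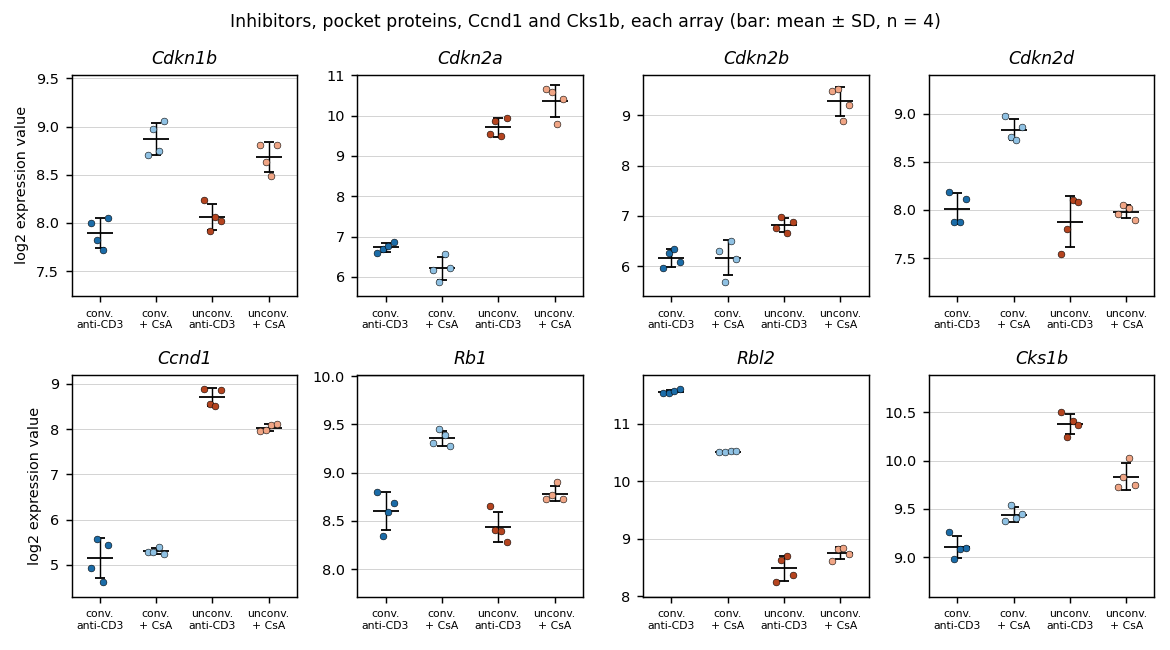
Log2 expression value of CDK inhibitors, Ccnd1, the pocket proteins Rb1 and Rbl2, and Cks1b on each of the 16 arrays (points) by clone and treatment, with the group mean and SD (bars); the y axes differ between panels. Cdkn2b stays at a mean of 6.16 in the conventional clone and goes from 6.82 to 9.28 in the unconventional clone, and Rbl2 goes from 11.56 to 10.52 in the conventional clone and from 8.49 to 8.76 in the unconventional clone.

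Wee1 and the CDC25 phosphatases act on the inhibitory phosphates of the CDKs, Wee1 adding and the CDC25 proteins removing them. Of the 5 genes of this group, 4 fell in the conventional and 2 in the unconventional clone. The shares over all genes were 15.5% and 12.3%. Wee1 read 8.71, 8.76, 8.76 and 8.55 in the conventional clone and 7.67, 7.69, 7.55 and 7.59 with cyclosporine A. On the unconventional arrays it read 9.67, 9.67, 9.79 and 9.67 against 9.67, 9.57, 9.80 and 9.63. The conventional groups were apart and the unconventional groups overlapped almost fully. Its changes were -1.07 (SE 0.07, 2.10-fold, adjusted p = 2.5e-10) and -0.03 (SE 0.07, adjusted p = 0.8270), and the difference was 1.03 (SE 0.10, adjusted p = 3.0e-07).

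Cdc25c, which activates Cdk1 at mitosis, read 5.36, 5.16, 4.90 and 4.90 in the conventional clone and 4.32, 4.09, 3.92 and 4.26 with cyclosporine A. The unconventional arrays read 6.94, 6.91, 7.14 and 7.09 against 6.26, 6.36, 6.77 and 6.41. Both pairs of groups were apart. The changes were -0.93 (SE 0.12, adjusted p = 2.6e-06) and -0.57 (SE 0.12, adjusted p = 9.8e-04), and the difference of 0.36 (SE 0.17) was not called. Its conventional means were higher than those of 44.4% and 24.9% of all genes, without and with cyclosporine A, so its fold there may be compressed too.

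Cdc25a, which acts at the start of S phase, gave close estimates in the clones, with changes of -0.87 in each (SE 0.08, adjusted p = 2.0e-08 and 4.7e-08) and a difference of -0.01 (SE 0.11). Cdc25b changed by -0.60 (adjusted p = 1.7e-05) and by -0.19 (adjusted p = 0.1412). Its difference of 0.41 (SE 0.13, adjusted p = 0.0312) was lost without any 1 of 6 arrays, at values of 0.32 to 0.39. These were conventional anti-CD3 replicates 1 and 4, conventional cyclosporine A replicates 2 and 4, unconventional anti-CD3 replicate 4 and unconventional cyclosporine A replicate 3. Without the last of these, the unconventional change of Cdc25b was -0.28 (adjusted p = 0.017). Cdkn3, a phosphatase that acts on the activation loop of CDKs, was called in neither clone, with changes of -0.29 and -0.24, and without unconventional cyclosporine A replicate 3 the second was -0.41 (adjusted p = 0.03).

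Skp2 is the F-box protein that marks p27 for degradation, and Cks1b is its cofactor in that reaction. The arrays read RNA, so p27 protein itself was not measured. Skp2 read 7.69, 7.65, 7.75 and 7.30 in the conventional clone and 6.72, 6.35, 6.47 and 6.53 with cyclosporine A. In the unconventional clone it read 8.45, 8.74, 8.64 and 8.77 against 7.85, 7.94, 8.24 and 7.93. It fell without overlap in both, by 1.08 (SE 0.11, adjusted p = 1.0e-07) and 0.66 (SE 0.11, adjusted p = 9.5e-05), opposite in direction to Cdkn1b on the same arrays. The difference of 0.42 (SE 0.15, adjusted p = 0.0730) was not called, but was without conventional anti-CD3 replicate 4 (0.52, adjusted p = 0.016) or cyclosporine A replicate 1 (0.49, adjusted p = 0.039). So it was with only genes above the median mean level (adjusted p = 0.043).

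The small CDK-binding proteins Cks1b and Cks2 did not move alike. Cks1b read 9.26, 8.98, 9.08 and 9.09 in the conventional clone and 9.37, 9.54, 9.40 and 9.45 with cyclosporine A, a rise without overlap. The unconventional arrays fell without overlap, from 10.50, 10.25, 10.41 and 10.37 to 9.73, 9.83, 10.03 and 9.75. The changes were 0.34 (SE 0.08, 1.26-fold, adjusted p = 0.0025) and -0.55 (SE 0.08, 1.46-fold, adjusted p = 2.7e-05), with a difference of -0.89 (SE 0.11, adjusted p = 1.1e-05). Cks1b kept both calls under every alternative setting run.

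Cks2 read 8.06, 7.88, 7.85 and 7.94 in the conventional clone and 6.77, 7.02, 6.53 and 7.39 with cyclosporine A. The unconventional arrays read 9.15, 8.72, 8.73 and 8.79 against 8.53, 8.42, 8.65 and 8.50. It fell by 1.00 (SE 0.13, adjusted p = 4.9e-06) in the conventional clone. The unconventional change of -0.33 (SE 0.13) had an adjusted p of 0.0925, although the arrays did not overlap, and 0.045 and 0.03 without conventional cyclosporine A replicate 3 or 4. This change was also called with the mean of all its probe sets (-0.35, adjusted p = 0.048) and with only the 8 arrays of that clone (adjusted p = 0.022). The difference was 0.68 (SE 0.19, adjusted p = 0.0171).

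Among the E2F and DP factors, 8 of 9 fell in the conventional and 6 of 9 in the unconventional clone. Of all genes, 15.5% and 12.3% did. E2f8, an atypical E2F that represses E2F targets without a DP partner and is itself a cell cycle-regulated gene, read 6.97, 6.73, 7.03 and 6.48 in the conventional clone and 4.91, 4.56, 4.49 and 4.79 with cyclosporine A. On the unconventional arrays it read 9.30, 8.75, 9.10 and 8.90 against 7.60, 7.75, 8.09 and 7.85. Both falls were without overlap. They came to -2.11 (SE 0.14, 4.32-fold, adjusted p = 2.1e-10) and -1.19 (SE 0.14, 2.28-fold, adjusted p = 1.6e-06), and the difference was 0.92 (SE 0.19, adjusted p = 0.0019). The treated conventional mean of E2f8 was higher than that of 36.3% of all genes, so its fold there may be compressed.

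E2f1, an activator of S phase genes, read 7.46, 7.51, 7.74 and 7.40 in the conventional clone and 6.23, 6.36, 6.28 and 6.35 with cyclosporine A. The unconventional arrays read 8.95, 8.78, 8.70 and 8.86 against 8.05, 7.98, 8.03 and 7.96. Here too the groups were apart in both clones. The changes were -1.22 (SE 0.08, 2.33-fold, adjusted p = 1.2e-10) and -0.82 (SE 0.08, 1.76-fold, adjusted p = 9.9e-08), and the difference was 0.40 (SE 0.11, adjusted p = 0.0126).

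The other activators, E2f2 and E2f3, fell less. E2f2 changed by -0.80 (adjusted p = 2.7e-06) and -0.62 (adjusted p = 9.6e-05). E2f3 changed by -0.32 (SE 0.10, adjusted p = 0.0136) and -0.64 (SE 0.10, adjusted p = 3.9e-05), but its other probe set read 0.13 in the conventional clone and -0.77 in the unconventional clone. With the mean of both probe sets the conventional change of E2f3 was -0.10 (adjusted p = 0.57), so its fall in that clone depends on the probe set, and the difference was -0.60 (adjusted p = 0.008) where the single probe set gave -0.31 (adjusted p = 0.1459). Of the factors that repress with pocket proteins, E2f5 fell by 0.89 and 0.57 (adjusted p = 5.0e-07 and 1.9e-04) and E2f4 changed by -0.02 and -0.06, with neither called. The E2f5 difference of 0.32 (SE 0.14, adjusted p = 0.1612) was called without unconventional anti-CD3 replicate 1 (0.40, adjusted p = 0.046).

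E2f7, the other atypical factor, fell by 0.62 (adjusted p = 1.9e-05) in the conventional clone and changed by -0.22 (adjusted p = 0.1041) in the unconventional clone. The E2f7 difference of 0.40 (SE 0.13, adjusted p = 0.0421) was lost when 1 array was left out, for 10 of the 16 arrays, at values of 0.30 to 0.42. Those were conventional anti-CD3 replicates 3 and 4, conventional cyclosporine A replicates 1, 2 and 4, unconventional anti-CD3 replicates 2, 3 and 4, and unconventional cyclosporine A replicates 2 and 3. Without conventional anti-CD3 replicate 3, the unconventional change of E2f7 was called (-0.22, adjusted p = 0.044). The DP partner Tfdp1 fell by 0.59 (adjusted p = 1.4e-07) and 0.29 (adjusted p = 9.1e-04), with a difference of 0.30 (SE 0.09, adjusted p = 0.0203). That difference was not called with arrays centred on their medians (0.27, adjusted p = 0.069) or with the mean of its 2 probe sets (0.22, adjusted p = 0.07). Tfdp2 was low, at 5.22 to 5.66 in the group means, and changed by -0.44 (adjusted p = 0.0076) and 0.01 (adjusted p = 0.9751). Its difference of 0.45 (adjusted p = 0.0881) was called without unconventional anti-CD3 replicate 1 (0.52, adjusted p = 0.049) or cyclosporine A replicate 2 (0.53, adjusted p = 0.036).

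The pocket proteins, which hold E2F factors in check, went different ways. Rb1, the retinoblastoma protein itself, read 8.80, 8.34, 8.59 and 8.69 in the conventional clone and 9.31, 9.45, 9.39 and 9.28 with cyclosporine A. The unconventional arrays read 8.65, 8.41, 8.40 and 8.28 against 8.73, 8.77, 8.90 and 8.73. It rose without overlap in both clones, by 0.75 (SE 0.09, 1.68-fold, adjusted p = 1.9e-06) and 0.35 (SE 0.09, 1.27-fold, adjusted p = 0.0082). The Rb1 difference of -0.40 (SE 0.13, adjusted p = 0.0430) was lost when 1 array was left out, for 11 of the 16 arrays, at values of -0.31 to -0.42. It held only without conventional anti-CD3 replicate 1 or 4, conventional cyclosporine A replicate 4, unconventional anti-CD3 replicate 4 or unconventional cyclosporine A replicate 3.

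Rbl2, which encodes p130, the pocket protein of resting cells, gave the widest negative gap between the clones. It read 11.54, 11.53, 11.57 and 11.60 in the conventional clone and 10.51, 10.51, 10.52 and 10.53 with cyclosporine A. On the unconventional arrays it read 8.25, 8.63, 8.70 and 8.37 against 8.62, 8.83, 8.85 and 8.73. The conventional fall of 1.05 (SE 0.09, 2.06-fold, adjusted p = 6.5e-09) was without overlap, and the difference from the unconventional change was 1.32 (SE 0.12, adjusted p = 1.8e-07). The unconventional arrays overlapped, and their change of 0.27 (SE 0.09) had an adjusted p of 0.0235. Without anti-CD3 replicate 1 or 4 or cyclosporine A replicate 2 or 3 of that clone, that change was 0.19 to 0.25 with an adjusted p of 0.073 to 0.091. With each array centred on its median it was 0.23 (adjusted p = 0.11), and with only the 8 arrays of that clone 0.27 (adjusted p = 0.062). The call of opposite directions for Rbl2 thus rests on those choices. Rbl1, which encodes p107, rose by 0.32 (adjusted p = 0.0056) in the conventional clone and changed by -0.14 (adjusted p = 0.3149) in the unconventional clone, with a difference of -0.46 (SE 0.12, adjusted p = 0.0112).

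The checkpoint kinases, which halt the cycle when DNA is damaged or incompletely replicated, moved apart in the conventional clone. Chek1 read 7.73, 7.60, 7.74 and 7.45 there and 6.04, 7.14, 6.16 and 6.18 with cyclosporine A. The unconventional arrays read 9.83, 10.28, 10.19 and 10.26 against 9.12, 8.97, 9.40 and 9.31. Replicate 2 of the treated conventional arrays lay above its group but below all untreated ones. The changes were -1.25 (SE 0.18, adjusted p = 9.8e-06) and -0.94 (SE 0.18, adjusted p = 4.0e-04), with a difference of 0.31 (SE 0.25, adjusted p = 0.5221). Without that replicate the conventional change was -1.50 and the difference 0.57, which was then called (adjusted p = 0.018).

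Chek2 read 7.18, 6.98, 6.68 and 6.93 in the conventional clone and 7.75, 7.72, 7.73 and 7.73 with cyclosporine A, a rise without overlap of 0.79 (SE 0.13, 1.72-fold, adjusted p = 7.7e-05). The unconventional arrays, at 7.63, 8.11, 8.35 and 8.17 against 8.13, 7.97, 8.36 and 8.46, overlapped, with a change of 0.16 (adjusted p = 0.4833). The Chek2 difference was -0.63 (SE 0.19, adjusted p = 0.0259). It was lost without any 1 of 5 arrays, at values of -0.53 to -0.59, namely conventional anti-CD3 replicate 3, unconventional anti-CD3 replicates 3 and 4, and unconventional cyclosporine A replicates 1 and 2.

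Mybl2 and Foxm1 drive the genes of late S phase, G2 and mitosis, and both fell in both clones. Mybl2 read 8.17, 7.97, 8.31 and 8.12 in the conventional clone and 5.85, 5.89, 6.21 and 6.17 with cyclosporine A. The unconventional arrays read 9.77, 9.58, 9.66 and 9.83 against 8.71, 8.48, 8.98 and 8.70. No groups overlapped. The changes were -2.11 (SE 0.11, 4.32-fold, adjusted p = 5.2e-12) and -0.99 (SE 0.11, 1.99-fold, adjusted p = 6.2e-07), with a difference of 1.12 (SE 0.15, adjusted p = 1.8e-05).

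Foxm1 read 6.54, 6.24, 6.33 and 6.23 in the conventional clone and 5.63, 5.54, 5.28 and 5.43 with cyclosporine A. The unconventional arrays read 8.29, 7.89, 7.99 and 7.75 against 6.97, 6.98, 7.49 and 7.27. Unlike Mybl2, it fell by close amounts, 0.86 (SE 0.12, adjusted p = 1.2e-05) and 0.81 (SE 0.12, adjusted p = 4.6e-05). The Foxm1 difference was 0.06 (SE 0.18, adjusted p = 0.9067).

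**Figure D4:**
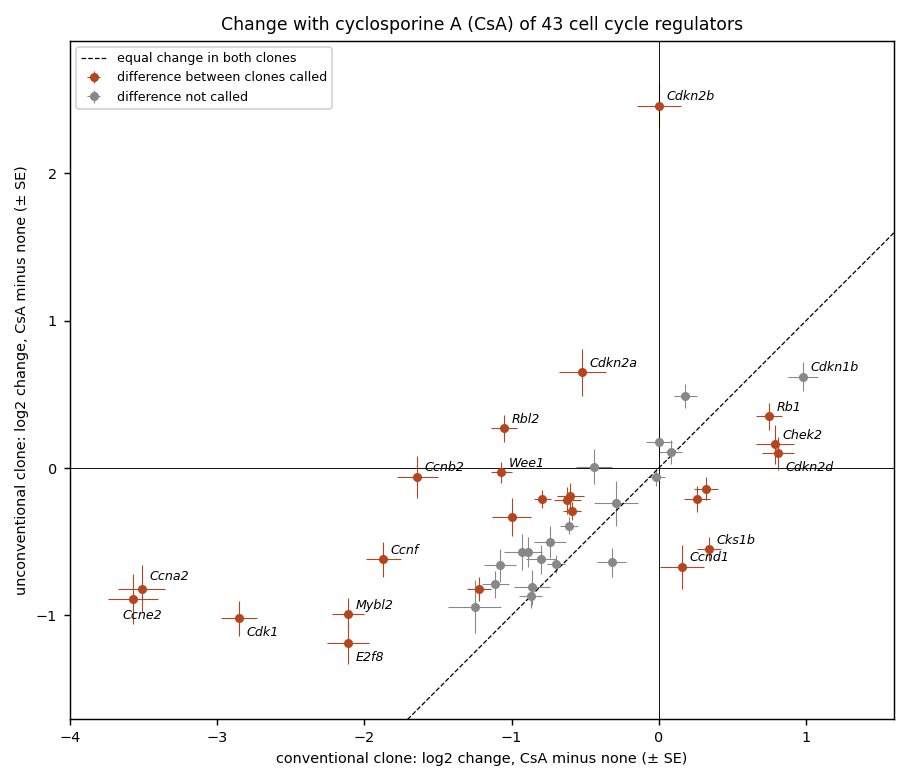
Log2 change with cyclosporine A in the conventional clone (x axis) against that in the unconventional clone (y axis) for the 43 genes, with SE bars; the dashed line marks equal change, and red points are the 24 genes whose difference between clones was called. Ccne2 (-3.57 and -0.89), Ccna2 (-3.51 and -0.82) and Cdk1 (-2.85 and -1.02) lie far above the line, Ccnd2 and Cdc25a lie close to it, and Cdkn2b (-0.00 and 2.46) stands alone at the top.

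With anti-CD3 alone, most of the genes were already higher in the unconventional clone. Of the 43, 32 were higher and 5 lower there, with a median difference of 0.94 against -0.07 over all genes, of which 20.3% were called higher and 21.7% lower. These comparisons share arrays with those of cyclosporine A, so they are not independent of them. Ccnd1 and Cdkn2a gave the widest gaps upward, the latter of 2.98 (SE 0.16, 7.88-fold, adjusted p = 9.2e-12). Chek1 was higher by 2.51 (SE 0.18, adjusted p = 4.2e-10), E2f8 by 2.21 (SE 0.14, adjusted p = 6.1e-11), Ccna2 by 2.05 (SE 0.16, adjusted p = 1.4e-09) and Cdc25c by 1.94 (SE 0.12, adjusted p = 5.2e-11). Lower in the unconventional clone were Rbl2, with a difference of -3.08 (SE 0.09, 8.44-fold, adjusted p = 2.7e-16), and Cdkn2c, Cdk7, Tfdp2 and Ccnd2, with differences of -0.79, -0.47, -0.31 and -0.24. The Tfdp2 call (adjusted p = 0.0464) was lost when 1 array was left out, for 9 of the 16 arrays, at differences of -0.21 to -0.33. Those were all 4 conventional anti-CD3 arrays, conventional cyclosporine A replicate 2, unconventional anti-CD3 replicates 2 and 4, and unconventional cyclosporine A replicates 1 and 3. The Cdk7 gap was -0.05 with the mean of its 2 probe sets, of which the other was dim, with a mean of 4.59. E2f5 and Cdkn1b were at like levels, with differences of 0.01 (adjusted p = 0.9556) and 0.16 (adjusted p = 0.2128).

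With cyclosporine A as well, most of the genes were higher in the unconventional clone. Of the 43 genes, 35 were higher and 6 lower in the unconventional clone, with a median of 0.93 against -0.08 over all genes, of which 21.3% were called higher and 23% lower. Ccna2 was higher by 4.73 (SE 0.16, 26.6-fold, adjusted p = 2.8e-15), Ccne2 by 4.22 (SE 0.17, 18.6-fold, adjusted p = 3.5e-14), Cdkn2a by 4.15 (SE 0.16, 17.7-fold, adjusted p = 3.9e-14) and Cdk1 by 3.49 (SE 0.12, 11.2-fold, adjusted p = 3.3e-15). E2f8, Cdkn2b and Ccnb2 followed, at 3.14, 3.11 and 3.10. The conventional levels of Ccna2, Ccne2 and E2f8 with cyclosporine A were low, so their gaps may be compressed. In the other direction, Rbl2 differed by -1.76 (SE 0.09, adjusted p = 1.0e-12), Cdkn2d by -0.85 (adjusted p = 1.5e-06) and Rb1 by -0.57 (adjusted p = 3.4e-05). Both comparisons called 32 genes higher, where 16.2% of all genes were. Both called 4 genes (Ccnd2, Cdk7, Cdkn2c and Rbl2) lower, where 13.6% of all genes were. Centred on the array medians, the Ccnd2 gaps of -0.17 and -0.15 were no longer called.

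The levels left under cyclosporine A in the unconventional clone can be set against those of the conventional clone without it. For 28 of the 43 genes, all 4 unconventional arrays with cyclosporine A lay above all 4 conventional arrays with anti-CD3 alone, where this held for 21.5% of all genes. Ccne2, Ccna2, Ccnb2, Cdk1, Cdk4, E2f1, E2f8, Foxm1 and Mybl2 were among them. For 7 genes (Ccnd2, Cdk2, Cdk6, Cdk7, Cdkn2c, E2f5 and Rbl2) all 4 lay below, where this held for 19.8% of all genes. For the other 8 genes, Ccne1, Ccnf and Cdc25a among them, the arrays overlapped.

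Genes around the core were read from 4 further lists. Over all genes, 15.5% were called lower and 15.9% higher in the conventional clone, and 12.3% and 12.6% in the unconventional clone. The 13 measured E2F-dependent replication genes of 14 listed, such as the MCM helicase subunits, all fell in both clones, 12 of them at least 2-fold in the conventional and 0 in the unconventional clone. Their median changes were -1.62 and -0.49, and the difference was called more positive in the unconventional clone for 12 of the 13. Mcm7 changed by -2.93 (SE 0.10, adjusted p = 1.2e-14) and -0.52 (SE 0.10, adjusted p = 3.4e-04), and Cdc6, which loads the helicase on origins, by -2.65 (SE 0.17, adjusted p = 1.2e-10) and -0.67 (SE 0.17, adjusted p = 0.0042). The 24 other cyclins and CDKs gave no such shift in their medians, which were -0.06 and -0.00. Of these genes, 8 rose and 6 fell in the conventional clone and 5 rose and 6 fell in the unconventional clone. Of these, Ccng2, an atypical cyclin associated with cell cycle arrest, rose by 1.07 (SE 0.25, adjusted p = 0.0022) and 1.38 (adjusted p = 3.0e-04), and Cdk19, a Mediator kinase, by 0.95 (SE 0.11, adjusted p = 6.8e-07) and 1.27 (adjusted p = 3.2e-08).

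Of the 20 measured subunits and regulators of the APC/C and SCF ubiquitin ligases, 21 listed, 8 fell and 2 rose in the conventional clone and 8 fell and 3 rose in the unconventional clone. Fbxo5, an inhibitor of the APC/C, fell by 2.28 (SE 0.14, adjusted p = 9.3e-11) and 1.14 (SE 0.14, adjusted p = 3.5e-06), with a difference of 1.14 (SE 0.20, adjusted p = 3.2e-04). Cdc20, its mitotic activator, fell by 1.26 (adjusted p = 3.4e-07) and 0.56 (adjusted p = 0.0039). The 5 genes of the MuvB complex, to which pocket proteins or Mybl2 bind, counted 3 lower and 1 higher in each clone, and the adjusted p of their differences between clones ran from 0.1643 to 0.9676. Lin54, its DNA-binding subunit, changed by -0.92 (SE 0.10, adjusted p = 1.9e-07) and -0.62 (adjusted p = 5.6e-05), and Lin9 by -0.86 (SE 0.11, adjusted p = 4.3e-06) and -0.85 (adjusted p = 1.1e-05).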

How the data were processed

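The authors deposited 1 log2 expression value for each probe set and array. The submitters' processing notes name GCOS, Partek 6.2 and RMA without saying what each did. RMA corrects background and equalises the distributions of the arrays, so a shift common to most transcripts would not be seen. The authors' genome build is not given in the sources used here. Of 28853 probe sets, 21789 had 1 gene symbol, 1621 several and 5443 none here. The probe set with the highest mean stood for a gene, which gave 19938 genes, and 5 of the 43 genes described had several. No filter on dim genes was applied.

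All 16 arrays entered 1 linear model of the 4 group means (limma 3.58.1, R 4.3.3), with 12 residual degrees of freedom. Tests were two-sided, with Benjamini-Hochberg adjustment over all genes. The number of arrays limits the precision. The fit was tested on simulated data. Alternatives were array centring, quantile normalization, a filter on dim genes, the mean of all probe sets, an intensity trend, fits on 8 arrays, a replicate block and leaving out each array. Of the sample columns, 0 were left unused. Values of every array are given for the 2 genes of each role with the largest cyclosporine A change in either clone, and for genes called in opposite directions. From each further list of genes, the 2 with the largest cyclosporine A change are named. The genes and lists were chosen with earlier results of these data known. Replicate numbers were checked for pairing: arrays with the same number deviated from their group means with correlations of -0.18 to 0.29, and were not treated as pairs.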

Additional observations from a re-analysis of the deposited data

Results flagged for a closer look

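The cyclosporine A effect differed between the clones by the limma test of the difference for 24 of the 43 genes. With the unconventional change minus the conventional change on the log2 scale, it was more positive for Ccna2 (2.69), Ccne2 (2.67), Cdkn2b (2.46), Cdk1 (1.83), Ccnb2 (1.58), Rbl2 (1.32), Ccnf (1.24), Cdkn2a (1.17), Mybl2 (1.12), Wee1 (1.03), E2f8 (0.92), Cks2 (0.68), Cdk4 (0.58), Cdc25b (0.41), E2f1 (0.40), E2f7 (0.40) and Tfdp1 (0.30). It was more negative for Cks1b (-0.89), Ccnd1 (-0.83), Cdkn2d (-0.71), Chek2 (-0.63), Ccnh (-0.47), Rbl1 (-0.46) and Rb1 (-0.40).

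Single arrays stood apart from the other 3, relative to the range of their group, by Dixon's test in 9 of 172 groups of 4 values. Chance alone gives about 8.6. The gap itself can be small, as for Chek2 at 7.75 with its nearest array at 7.73. Ccna2 read 8.25 on conventional anti-CD3 replicate 4 and 10.15 on unconventional cyclosporine A replicate 3. Wee1 read 9.79 on unconventional anti-CD3 replicate 3, and Cks2 read 9.15 on replicate 1 of that group. E2f2 read 6.67 on conventional anti-CD3 replicate 4. E2f3 read 7.75 on conventional cyclosporine A replicate 2 and 7.64 on unconventional cyclosporine A replicate 1. Chek1 read 7.14 on conventional cyclosporine A replicate 2, and Chek2 read 7.75 on replicate 1 of that group, where the other 3 arrays were within 0.01 of each other.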

How the results depend on the processing

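Of 4897 single-gene values recomputed under the alternatives, 4737 kept their direction and their side of the threshold, 79 lost a call, 38 gained one, 1 reversed, and 42 uncalled values changed sign. The reversed value was the Cdk7 clone difference with cyclosporine A, 0.037 with the mean of its probe sets against -0.44. With arrays centred on their medians, 3 of the 43 genes rather than 5 were called lower in the unconventional clone with anti-CD3 alone, and 34 higher. Over all genes that centring moved the split of calls from 4048 higher and 4328 lower to 4418 and 2952. The count of genes at least 2-fold lower with cyclosporine A in the unconventional clone ran from 1 to 4 when single arrays were left out, against 2 with all arrays. The Rb1, E2f7, Cdc25b and Chek2 differences between clones were each lost in 5 or more settings. So were the E2f3 clone difference with cyclosporine A and the Tfdp2 clone difference with anti-CD3 alone. The Rbl2 rise with cyclosporine A in the unconventional clone was lost in 6 settings, and the Ccnh rise in the conventional clone in 5. The cause was not tested. Numbers near the lower end of the scale are limited by background.

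Replicate numbers are shared by the groups without a stated meaning, and 7 of 16 arrays correlated best with an array of their own number. With a replicate block, the cyclosporine A counts of lower genes were 29 in the conventional and 23 in the unconventional clone, with 14 and 2 at least 2-fold lower. Under the block the clone comparisons gave 5 and 6 lower genes, and 6 differences of effects rather than 7 were more negative, since Rb1 (-0.40, adjusted p = 0.05) was lost. The block changed no other call.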
